A study of Mus musculus with 6 samples.

Results

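The PGC-1 family of transcriptional coactivators consists of Ppargc1a, Ppargc1b and Pprc1, and this account describes the DNA that Tug1 probes recovered in and around these 3 genes, Tug1 being a long noncoding RNA. Members were found by position: every peak inside one of the genes or within 100 kb of it was taken, which gave 93 of the 130269 peaks in 4 lists. The cells were mouse podocytes, the epithelial cells of the kidney's filtration barrier, immortalised with a temperature-sensitive SV40 T antigen, grown at 33 degrees, switched to 37 degrees for 10 days to differentiate, and used at passages 10 to 12. The assay was ChIRP-seq (chromatin isolation by RNA purification), in which biotinylated oligonucleotides complementary to an RNA pull that RNA and the chromatin crosslinked to it out of a nuclear extract. The 48 probes along Tug1 formed an even and an odd set with no probe in common, and 2 pulldowns were made with each set, called even replicates 1 and 2 and odd replicates 1 and 2. The labels give the same cells and no treatment for every pulldown, and the 2 libraries of input DNA entered only through the authors' peak calling. Whether replicates came from separate cultures is not given in the labels, and differences between them may be technical. No pulldown of another RNA was analysed here, so recovery that does not depend on Tug1 cannot be told apart from recovery that does.

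PGC-1 proteins do not bind DNA themselves. They dock onto nuclear receptors and other transcription factors, such as the PPARs, the oestrogen-related receptors and nuclear respiratory factor 1, and recruit histone acetyltransferases and the Mediator complex to genes of mitochondrial biogenesis and oxidative metabolism. Ppargc1a codes for PGC-1alpha, the founding member, whose level responds to cold, exercise and fasting through cAMP signalling and AMPK. Ppargc1b codes for PGC-1beta, its close relative in tissues rich in mitochondria, and Pprc1 for PRC, a more distant relative induced when quiescent cells are given serum. Podocytes depend on mitochondrial function to maintain their foot processes, and Ppargc1a has been followed up in work on Tug1 in these cells.

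Distances were counted from RefSeq transcription starts on mm10 (GRCm38.p6), which the reference table gives with their strand for Ppargc1a and Pprc1. The promoters at these 2 starts are shown because every distance below is measured from them, and because no peak of any library overlapped either one. Each runs 5′ to 3′ on the gene's strand, from 250 bases before the start to 50 after it, as listed in RefSeq. Capitals mark the motif matches named after the sequences.
Ppargc1a promoter, chr5:51567676-51567975, minus strand: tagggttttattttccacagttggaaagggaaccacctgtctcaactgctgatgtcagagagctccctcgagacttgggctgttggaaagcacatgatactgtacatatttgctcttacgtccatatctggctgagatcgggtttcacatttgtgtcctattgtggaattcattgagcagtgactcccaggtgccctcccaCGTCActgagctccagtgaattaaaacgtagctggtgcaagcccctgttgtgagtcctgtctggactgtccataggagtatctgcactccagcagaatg
Pprc1 promoter, chr19:46056289-46056588, plus strand: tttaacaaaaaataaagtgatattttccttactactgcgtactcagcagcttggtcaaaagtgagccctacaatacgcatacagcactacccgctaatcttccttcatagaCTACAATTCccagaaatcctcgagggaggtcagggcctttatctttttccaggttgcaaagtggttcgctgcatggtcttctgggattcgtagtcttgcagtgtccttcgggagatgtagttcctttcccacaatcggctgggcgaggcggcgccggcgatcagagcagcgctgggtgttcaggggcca
In the Ppargc1a promoter the capitals mark the core of the cAMP response element, TGACG, on the opposite strand at position -49 from the start. This core occurred in 20.8% of the 32851 promoters of that length in the table. In the Pprc1 promoter they mark CTACAATTC, part of the element bound by ZNF143, at position -139, which occurred in 0.356% of promoters. The full cAMP response element TGACGTCA, which contains the core (found in 1.79% of promoters), the MEF2 element TATTTATAG (0.451%), the oestrogen-related receptor element TNAAGGTCA (1.28%), the NRF1 element GCGCATGCG (1.75%) and the GABP element CCGGAAG (8.86%) had no match in either window on either strand. The motifs were chosen with the sequences in view, and a match describes letters, not a bound site. The Ppargc1a window belongs to the only start listed for that gene. Any other promoter of Ppargc1a was not searched, so a motif missing here may be present there. Over all protein-coding genes, 4.75% of 21263 such promoters were overlapped by a peak of at least 1 library, so the lack of a peak at these promoters is what most genes showed. Ppargc1b had no entry in the promoter table, and its peaks are placed by distance from the ends of the gene.

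Ppargc1a (gene ID 19017) spans 662 kb of chromosome 5, from 51454249 to 52115853 on the minus strand. Its listed start lies at 51567725. From this start 113 kb of the gene span runs to the 3′ end, and 548 kb lies upstream of it, where the annotated span reaches further. This is the only start listed for the gene, and since the span reaches beyond it, transcripts may begin elsewhere too. Distances to other starts were not measured. The gene and its flanks held 16 and 8 peaks in even replicates 1 and 2 and 11 and 7 in odd replicates 1 and 2. Both replicate 1 libraries had more than both replicate 2 libraries, and the probe sets overlapped. Of the 42 peaks, 32 lay in the 548 kb upstream of the listed start, or 5.84 per 100 kb. The 113 kb from the start to the 3′ end held 2, both of even replicate 1, or 1.76 per 100 kb. In even replicate 2, odd replicate 1 and odd replicate 2 that stretch held no peak. Each flank of 100 kb held 4 peaks, or 4 per 100 kb. The lower rate rests on 2 peaks, and the contrast was not tested.

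Merging peaks that overlapped by at least 1 bp left 36 regions at Ppargc1a. A single library gave 31 of them, 4 were shared by 2 libraries and 1 by 3, and none was found in all 4. All 5 regions of more than 1 library lay upstream of the listed start within the gene span. They were spread from 154 to 539 kb before the start, as the map of peaks along the 3 genes shows.

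**Figure D1:**
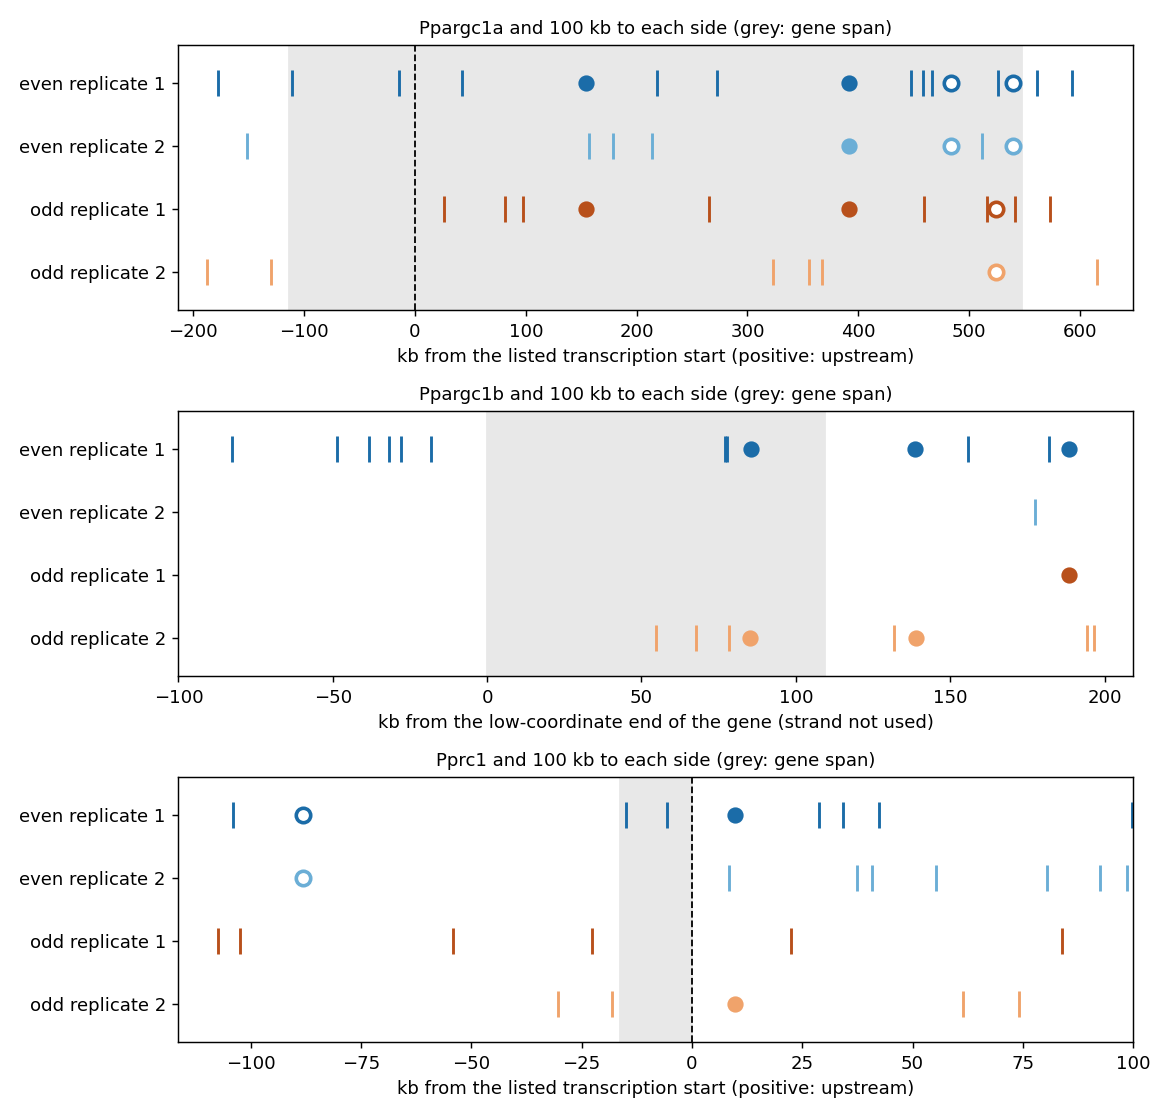
Peaks of each pulldown along Ppargc1a, Ppargc1b and Pprc1 with 100 kb to each side, in kb from the listed start (dashed line; positive is upstream) or, for Ppargc1b, from the low-coordinate gene end. Bars are peaks of 1 library, open circles peaks shared within a probe set and filled circles peaks shared between the sets; the filled column of 3 libraries at Ppargc1a lies 391 kb upstream.

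The region found in most libraries at Ppargc1a lay at chr5:51959169-51959969, beginning 391444 bp (391 kb) upstream of the listed start and 156 kb inside the high-coordinate end of the gene span. Its 3 peaks came from even replicate 1 (51959492 to 51959969, score 3100), even replicate 2 (51959189 to 51959785, score 374) and odd replicate 1 (51959169 to 51959789, score 3100). The peaks of even replicate 2 and odd replicate 1 nearly coincided: the first lay wholly within the second and covered 96.1% of it, although they came from different probe sets and were called against different inputs. The peak of even replicate 1 began further along and shared 298 bp with that of odd replicate 1 and 294 bp with that of even replicate 2. All 3 covered the 294 bp from 51959492 to 51959785. Odd replicate 2 had no peak there, and its nearest peak was 24457 bp away.

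**Figure D2:**
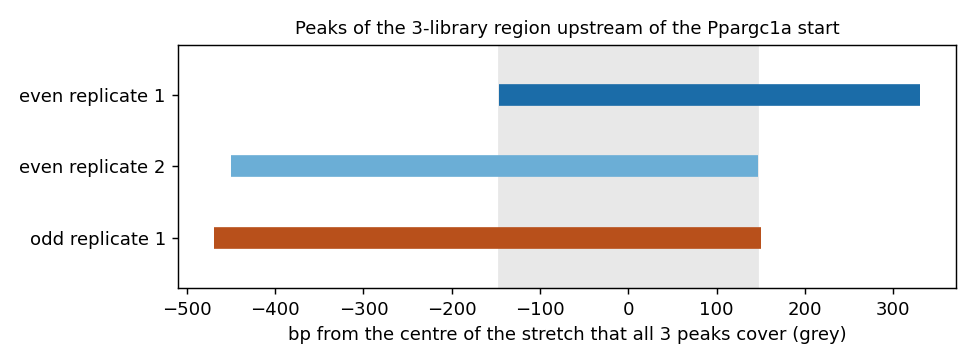
Extent of the 3 peaks of the region upstream of the Ppargc1a start, in bp from the centre of the 294 bp that all 3 cover (grey). The peaks of even replicate 2 (597 bp) and odd replicate 1 (621 bp) nearly coincide, and that of even replicate 1 (478 bp) is shifted to one side.

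The peaks in this region were wide for their lists. The odd replicate 1 peak, at 621 bp, was wider than 99% of that list, whose median width was 247 bp, and the even replicate 2 peak, at 597 bp, was wider than 94.8% of its list. The even replicate 1 peak, at 478 bp, was wider than 80.2%. These lists include peaks found in 1 library alone. Among the 2326 regions of 3 libraries the median width was 502 bp, and this region measured 801 bp. Scores were less telling. The score comes from the authors' peak caller on a scale the files do not state, and 3100 was shared by 78.6% of even replicate 1 peaks and 99.9% of odd replicate 1 peaks, so most peaks of these 2 lists are tied. In even replicate 2, where few were, 374 stood above 72.9% of the list. Among the 540 regions in the genome found in the same 3 libraries, the median even replicate 2 score was 357, and 53.7% scored lower than the Ppargc1a region.

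The study's paper reports a Tug1 binding site upstream of Ppargc1a. Its coordinates were not used here, so whether that site is the region at 391 kb was not tested. Measured facts that bear on it are few. The region lies on the upstream side of the listed start but inside the gene span, 156 kb from its far end. It is the only one of at least 3 libraries in the gene or within 500 kb to either side. It does not lie near the promoter at the listed start, since no region of both probe sets was found within 100 kb of that start. Other promoters of the gene were not examined. A looser condition is a region of at least 3 libraries anywhere upstream and nearer than 391 kb, inside the gene span or not. Of 21262 listed starts of other protein-coding genes, 39.5% met it. The median distance to the nearest upstream region of at least 3 libraries was 565 kb. Of the 57 other protein-coding genes with a window within 10% of the same width, 63.2% held a region of at least 3 libraries. One of all 4 was held by 15.8% of them and not by Ppargc1a. Whether the span of the gene plays a part was not tested.

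The other region of both probe sets at Ppargc1a lay 154 kb upstream of the start, from 51722002 to 51722657, and paired even replicate 1 (score 3100) with odd replicate 1 (score 3100). Its peaks overlapped by 434 bp. Both libraries were called against the same input, and both scores were the tied value. Within the even set, a region at 52051404 to 52051909, 484 kb upstream, was found in replicates 1 and 2, with a score of 597 in replicate 2 that stood above 93.2% of that list. A second even region, at 52107048 to 52107463, lay 539 kb upstream of the listed start and 8.39 kb inside the far end of the gene span, with a score of 278 in replicate 2. Within the odd set, both replicates had a peak at 52091632 to 52092017, 524 kb upstream, and the 2 peaks ended at the same base. The odd replicate 2 peak scored 173 there, above 30.8% of its list. The 3 regions shared within a probe set, by definition without a peak of the other set, thus sat in the last 64 kb of the gene span.

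Nearest to the listed start of Ppargc1a was a peak of even replicate 1, 14.4 kb downstream of it within the gene (51553055 to 51553287, score 3100). How near this peak lies to any other start of the gene was not measured. The nearest peak of odd replicate 1 was 25.8 kb upstream. Those of even replicate 2 and odd replicate 2 were 152 kb and 129 kb away, farther than the nearest peak of the same library at 94.2% and 95.9% of other listed starts, where the median distances were 31.4 kb and 22.6 kb. In the replicate 2 libraries the listed Ppargc1a start therefore lay in a stretch with few peaks. In even and odd replicate 1 its distances of 14.4 and 25.8 kb were close to the medians of 17.9 and 26.3 kb.

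Peak numbers at Ppargc1a were above the median of windows of similar width in every library but odd replicate 2. The medians were 12 and 7 in even replicates 1 and 2, where Ppargc1a had 16 and 8. In odd replicates 1 and 2 they were 8 and 9, where it had 11 and 7. Ppargc1a had 2 regions of both probe sets, where the 57 other windows had a median of 2 (quartiles 1 and 3), 35.1% held fewer, 49.1% held more and 93% held at least 1. Peak numbers per Mb, relative to chromosome 5 as a whole, were 1.21 and 0.924 in even replicates 1 and 2 and 1.29 and 0.619 in odd replicates 1 and 2, a mean of 1.01 ± 0.304 (SD, n = 4). Just outside the 100 kb limit, by 3.65 kb, lay one more region of both probe sets, at 52219503 to 52220174, with scores of 3100 in even replicate 1 and 243 in odd replicate 2. Among neighbours, Dhx15, which codes for an RNA helicase of the spliceosome, held 1 peak each of even replicate 1 and odd replicate 2, and these did not overlap.

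Ppargc1b (gene ID 170826) spans 109 kb of chromosome 18, from 61291445 to 61400756. Its window held 13 and 1 peaks in even replicates 1 and 2 and 1 and 8 in odd replicates 1 and 2. Libraries of one probe set were thus far apart, and the high counts came from 1 even and 1 odd library with different replicate numbers. Relative to chromosome 18, peak density was 3.01 in even replicate 1 and 2.36 in odd replicate 2, against 0.394 in even replicate 2 and 0.325 in odd replicate 1. Among 1634 other windows of similar width, 97.8% held fewer peaks in even replicate 1 and 88.5% in odd replicate 2, while 80.4% held more in even replicate 2 and 86.1% in odd replicate 1. The mean ratio of 1.52 ± 1.37 (SD, n = 4) therefore describes none of the libraries.

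**Figure D3:**
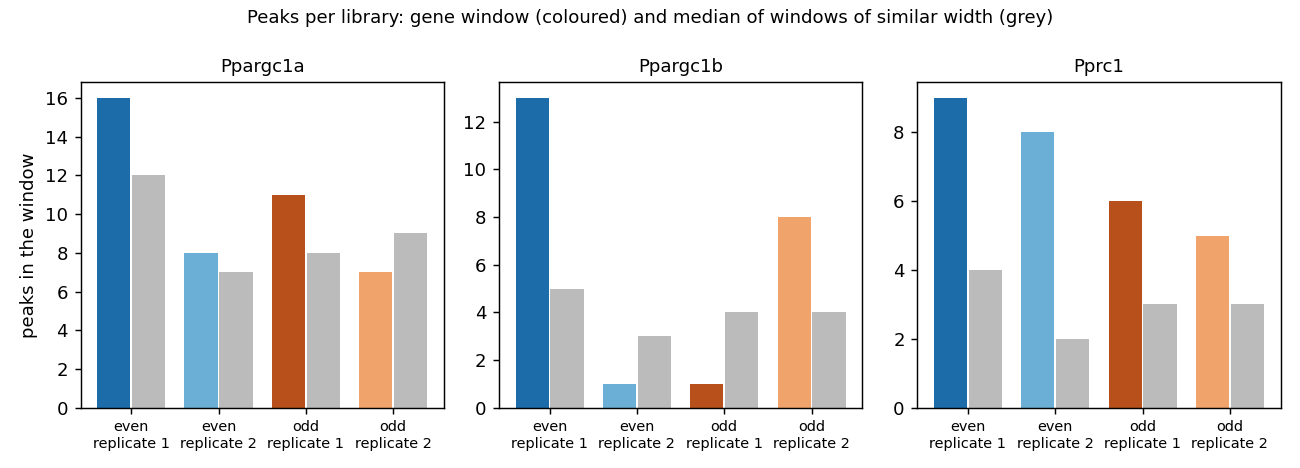
Peaks in each gene window (coloured bars) beside the median of other protein-coding windows within 10% of the same width (grey bars), for each library. At Ppargc1b, even replicate 1 (13) and odd replicate 2 (8) lie above their medians of 5 and 4, while even replicate 2 and odd replicate 1 have 1 peak each, below medians of 3 and 4; at Pprc1 all 4 libraries lie above their medians.

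Inside Ppargc1b lay 7 peaks, 3 of even replicate 1 and 4 of odd replicate 2, all at least 54.3 kb from the low-coordinate end. The region at 61376549 to 61377029, 23.7 kb inside the high-coordinate end, held the odd replicate 2 peak (score 453, above 89% of its list) entirely within the even replicate 1 peak (score 3100). A cluster next to it, from 61368372 to 61369847, comprised 2 peaks of even replicate 1 and 1 of odd replicate 2 (score 376) that did not overlap but lay within 1000 bp of one another. Mir378a, a microRNA gene within the Ppargc1b span, was not overlapped by a peak of any library.

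Outside the gene, 2 further regions held both probe sets. One, at 61429968 to 61430446, lay 29.2 kb beyond the high-coordinate end of Ppargc1b and overlapped no annotated gene, with scores of 3100 in even replicate 1 and 433 in odd replicate 2. The other, at 61479617 to 61480028, lay inside Lncbate10, a lncRNA gene named for brown adipose tissue, and had scores of 3113 in even replicate 1 and 3100 in odd replicate 1. It held the only odd replicate 1 peak in the window. On the low-coordinate side all 6 peaks came from even replicate 1, and 5 of them lay in Pde6a, which codes for a phosphodiesterase subunit of rod photoreceptors. In total Ppargc1b had 3 regions of both probe sets, more than 90.4% of the 1634 windows of similar width (median 1, quartiles 0 and 2; 61.1% held at least 1), and no region of 3 libraries, which 30.2% of those windows had. Every one of the 3 included even replicate 1, and without that library none was left.

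Pprc1 (gene ID 226169) is the shortest of the 3 genes, 16.4 kb on chromosome 19, from 46056526 to 46072909 on the plus strand, with its listed start at 46056539. Its window held 9 and 8 peaks in even replicates 1 and 2 and 6 and 5 in odd replicates 1 and 2. Both even libraries were above both odd ones by number. Relative to chromosome 19, density was 1.81 and 2.38 in even replicates 1 and 2, and 1.87 and 1.13 in odd replicates 1 and 2 (mean 1.80 ± 0.515, SD, n = 4), above 1 in 4 of 4 libraries. Compared with 15620 windows of similar width over all chromosomes, 92.6% and 97.5% held fewer peaks in even replicates 1 and 2 and 88.2% and 72.7% in odd replicates 1 and 2. The gene itself held 2 peaks, both of even replicate 1, at 5.56 and 14.7 kb downstream of the start.

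High numbers of peaks at Pprc1 did not come with many shared ones. Of 26 regions, 24 came from 1 library. The single region of both probe sets, of which 52.2% of the 15620 windows held at least 1, lay 9.49 kb upstream of the start, at 46046452 to 46047049, with scores of 3100 in even replicate 1 and 268 in odd replicate 2, above 63.1% of the odd replicate 2 list. It lies inside Ldb1, the neighbouring gene for an adaptor protein of LIM-domain transcription factors, and its peaks overlapped by 181 bp. A peak of even replicate 2 (46048034 to 46048299, score 372) followed at 8.24 kb upstream of the Pprc1 start, across the high-coordinate end of Ldb1. Ldb1 is on the minus strand, so this is its 5′ end. A region of both probe sets lay nearer than 9.49 kb at 8.21% of 21262 other listed starts, where the median was 99.2 kb. The Pprc1 start was thus nearer to such a region than most starts, through 1 peak in each of 2 libraries.

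The other shared region at Pprc1 was of even replicates 1 and 2, 87.9 kb downstream of the start at 46144430 to 46145016, inside Pitx3, a homeodomain transcription factor gene. Its score of 117 in even replicate 2 stood above only 4.12% of that list. No region of 3 libraries lay in the window, and 25.6% of windows of similar width held one. Beyond the 100 kb limit, within 500 kb of the gene, there were 5 such regions, the nearest at 46218665 to 46219118 in Gbf1, which codes for a guanine nucleotide exchange factor of the early secretory pathway, with scores of 3100 and 429 in even replicates 1 and 2 and 1006 in odd replicate 2. It lay 146 kb from the 3′ end of Pprc1.

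**Figure D4:**
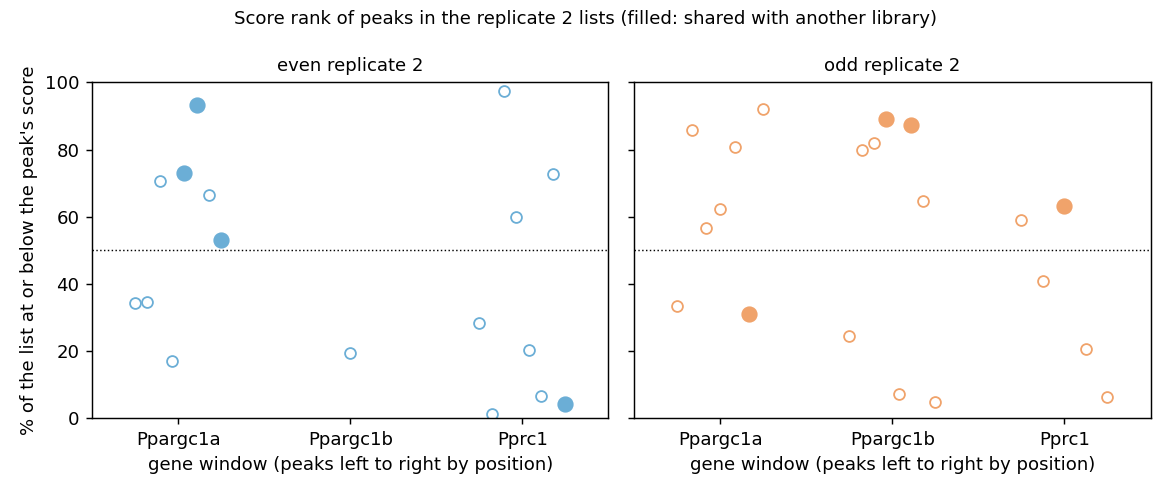
Percentage of the list at or below each peak's score, for the peaks of the 3 gene windows in even replicate 2 and odd replicate 2, the lists with few tied scores. Filled circles are peaks shared with another library; at Ppargc1a the 3 shared even replicate 2 peaks lie between 53.2% and 93.2%, and at Pprc1 the shared one lies at 4.13%.

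Set side by side, the 3 genes had 2, 3 and 1 regions of both probe sets in windows of 862, 309 and 216 kb, for Ppargc1a, Ppargc1b and Pprc1 in that order. Over all 21884 other protein-coding genes, 55.3% had at least 1 such region inside or within 100 kb, 27.3% had a region of at least 3 libraries and 6.97% one of all 4. A count of 3 of 3 members with a region of both sets stands against that 55.3%, and 1 of 3 with a region of 3 libraries against 27.3%. With 3 genes, neither count can be told from those shares. Of the 6 regions of both probe sets, all 6 included even replicate 1, the library with the longest list (40725 peaks, against 26529, 28047 and 34968 in even replicate 2 and odd replicates 1 and 2). Peak lists carry no read counts, so the depth behind each library is unknown, and how far list length sets these counts was not tested.

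**Figure D5:**
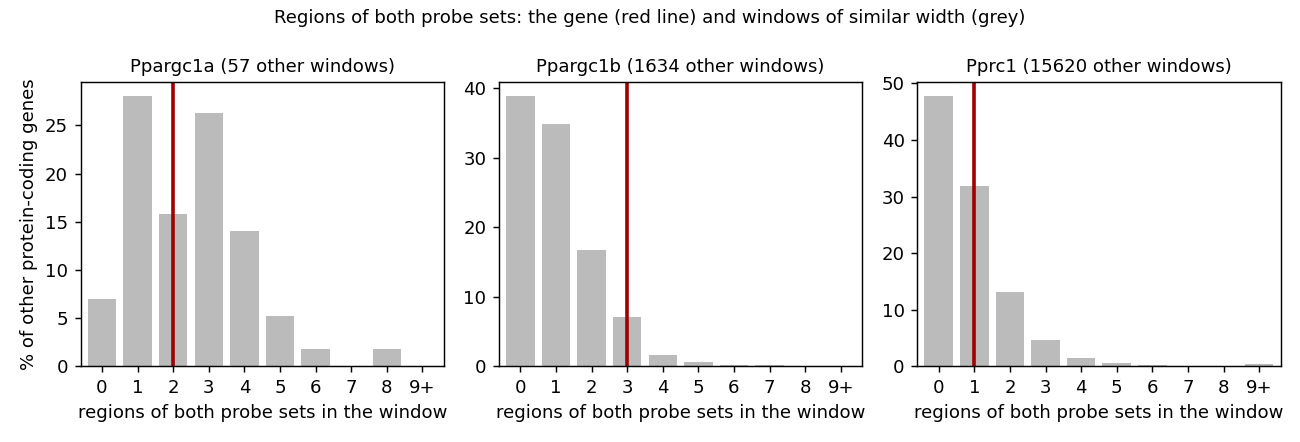
Regions that both probe sets recovered, counted in the window of each gene (red line) and in other protein-coding windows within 10% of its width (grey bars, percentage of genes; 9+ pools 9 and above). Ppargc1a, with 2, is at the median of 57 windows, Ppargc1b, with 3, is above 90.4% of 1634, and Pprc1, with 1, is at the median of 15620.

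Between the probe sets, the 3 windows together held 38 and 17 peaks in even replicates 1 and 2 and 18 and 20 in odd replicates 1 and 2. The means were 27.5 ± 14.8 in the even and 19 ± 1.41 in the odd libraries (SD, n = 2 each), a difference of 8.5 that was smaller than the spread of the even replicates (two-sided exact permutation p = 1; with 2 against 2 libraries this test cannot pass a threshold of 0.05). Without even replicate 1 the even library left had 2 peaks fewer than the odd mean, a difference of -2.

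By peak numbers in the 4 libraries, the windows most like Ppargc1a among the 57 of similar width were those of Ank2 and Kcnma1, at a Euclidean distance of 3.16 peaks each, followed by 2 windows tied at 3.87, of which Grip1 came first by name. Nearest to Ppargc1b were Atp2b4 and Tbc1d9, both at a distance of 3, and Nsd1 at 3.16. Nearest to Pprc1 was Brms1, at a distance of 1, with 9 and 8 peaks in even replicates 1 and 2 and 5 and 5 in odd replicates 1 and 2, and then 8 genes tied at 1.41, of which Baiap2l2 and Ccnt1 came first by name. Likeness over 4 numbers is a description only.

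Genes that work with the PGC-1 coactivators were read the same way from a list of 67. A region of both probe sets lay inside or within 100 kb of 44 of them, 65.7% against the 55.3% of other protein-coding genes, with a median of 1 region against 1 over all and a median window of 238 kb against 217 kb. By role, such a region was found at 9 of 11 nuclear receptors, 4 of 11 other transcription factors, 10 of 12 upstream regulators, 7 of 10 coactivators and corepressors and 14 of 23 targets. Regions of at least 3 libraries lay at 24 of the 67, or 35.8% (6 receptors, 2 other factors, 5 regulators, 4 cofactors and 7 targets), beside the 27.3% of other genes. Without even replicate 1 the count of 44 fell to 17, where the share over other protein-coding genes was 22.1%.

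Regions of all 4 libraries lay at 2 of the 67 list genes, or 2.99%, beside the 6.97% of other protein-coding genes. Hnf4a, a regulator of hepatic and proximal tubule genes, held one inside the gene at chromosome 2, 163515750 to 163516400, with scores of 324 in even replicate 2 and 563 in odd replicate 2. Ppara, the receptor that drives fatty acid oxidation, had one 19.4 kb outside the gene at chromosome 15, 85715052 to 85715542, with scores of 302 and 1235 in even and odd replicate 2. A further 22 list genes had regions of 3 libraries, and the first 10 by symbol are described. Such regions lay inside Atf2, a CREB-family factor known to activate Ppargc1a (chromosome 2, 73842434 to 73843169), inside Esrrb, an oestrogen-related receptor gene (chromosome 12, 86385766 to 86386713), and inside Fbxw7, a ubiquitin ligase subunit gene (chromosome 3, 84860780 to 84861666). They lay outside, within 100 kb, at Crtc1, Crtc2 and Crtc3, the CREB coactivator genes (5.89, 99 and 38.1 kb away), at Crebbp with 2 (43.2 and 49.4 kb) and Ep300 (55 kb), the acetyltransferase genes, and at Cox4i1 with 2 (15.7 and 81.1 kb) and Acadm (90.4 kb), which code for a cytochrome oxidase subunit and a fatty acid oxidation enzyme. The other 12 were Mef2a, Ncoa1, Ncoa2, Nr3c1, Pparg, Rnf34, Rxra, Sod2, Tfb2m, Twnk, Ucp2 and Vegfa.

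As the control locus, Tug1 itself (chromosome 11, 3639785 to 3648814) held 3 regions, each in all 4 libraries, whereas no region of the 3 coactivator genes was found in all 4. The probes match the DNA of that gene as well as its RNA.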

How the data were processed

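Peak lists of 4 pulldown libraries were used (40725 and 26529 peaks in even replicates 1 and 2, 28047 and 34968 in odd replicates 1 and 2). The submitters' processing notes name Bowtie2 2.1.0 and the mm10 build, and each list was called against 1 input library, per the file names. The deposited score of each peak was made by the authors' peak caller on a scale not given in the sources used here and was compared only within a list. A joined list held the same peaks. Regions are runs of peaks with an overlap of 1 bp or more, and positions are 1-based. Genes and promoters came from RefSeq (GRCm38.p6), and a start is the base after the first 250 of a promoter entry. Counts were set beside 21884 other protein-coding genes with the same window, and within 10% of the same width. Depth is unknown from peak lists, and no counting interval was formed. The exact permutation test was run over libraries; its threshold was 0.05. Genes were named by a fixed rule: the 3 members, regions of at least 2 libraries with the genes holding or next to them, the peak nearest each start, up to 12 list genes with regions in the most libraries, and up to 3 windows most alike, with ties cut by symbol. Pde6a, Mir378a, Dhx15, Gbf1 and the last 12 list genes were chosen after their values were seen. Members, windows and the gene list were chosen with earlier results of these data known. Merging was tested on simulated peaks of equal width that overlapped largely or lay far apart. Slight overlaps and crowded peaks were not tried. The software was Python 3.11.15 with numpy 2.4.6, pandas 2.3.3 and matplotlib 3.10.9.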

Additional observations from a re-analysis of the deposited data

How the results depend on the processing

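Of 58 recalculated values, 39 kept their direction and, for counts, stayed within 1.5 times; 18 moved and 1 turned direction, and the cause was not tested. With 200 kb to each side, regions of both probe sets numbered 4 at Ppargc1a and 3 at Pprc1, and with 500 kb 4 and 9. Inside the gene span alone there was 1 at Ppargc1b and 0 at Pprc1, and within 100 kb of the listed start 0 at Ppargc1a (Ppargc1b had no listed start). A reciprocal overlap of 50% left 0 at Pprc1, and the region 391 kb upstream of Ppargc1a then held 2 libraries, even replicate 2 and odd replicate 1. Leaving out one library each gave 0 to 2 at Ppargc1a (0 without odd replicate 1) and 0 to 3 at Ppargc1b (0 without even replicate 1 and 1 without odd replicate 2). At Pprc1 it gave 0 to 1 (0 without even replicate 1 or odd replicate 2). List genes with a region of both probe sets then numbered 17 (without even replicate 1) to 43 (without even replicate 2) of 67. The shares of other protein-coding genes in those 2 settings were 22.1% and 51.8%. Of the 67 list genes, 22 had a region of both probe sets inside or within 5 kb. Among other protein-coding genes 16% had one. Gene length was not matched in that comparison. The even minus odd difference ran from -2 to 19 with a library left out, an alternative added after seeing the data. Same replicate numbers share an input, per the file names, and the labels state no other pairing. With the number as a replicate block, the difference stayed 8.5 (two-sided exact permutation p = 1; the smallest possible is 0.5), and regions whose even and odd libraries share a number were 2 at Ppargc1a, 1 at Ppargc1b and 0 at Pprc1. Depth is unknown, so a region missing in a library is not shown to be absent.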
